A study of Homo sapiens with 16 samples.

Results

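The 10 genes described here carry a cell through mitosis: the kinases AURKA and PLK1, the chromosomal passenger complex (AURKB, BIRC5, CDCA8 and INCENP) and the spindle checkpoint genes BUB1, BUB1B, TTK and MAD2L1. They were chosen by name. Every probe set whose only gene symbol in the array's annotation is one of these names was read, which gave 22 of 54675 probe sets and 10 of 19775 genes. Each gene is represented by its brightest probe set, the one with the highest mean over all arrays, and the other 12 probe sets are described separately.

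RNA came from SAOS cells, a human osteosarcoma line that lacks functional retinoblastoma protein (RB), and was measured on 16 single-colour Affymetrix arrays, 4 for each of 4 groups. The control cells were not transfected. The RB group was transiently transfected with human RB1, the SMYD2 group with mouse SMYD2 (a lysine methyltransferase), and the RB plus SMYD2 group with both. All groups are the same line. No group labelled as given an empty vector is among them, and the labels give neither the promoter of the constructs nor the share of cells that took them up. A difference from the control group therefore combines the construct with transfection. The arrays in each group are numbered 1, 3, 4 and 5. Whether they stem from separate cultures is not said, so the p-values reflect the spread between these arrays alone, and that spread may be technical. Values are log2 signals, on which a difference of 1 is a doubling. The series title names the effect of SMYD2 overexpression on introduced RB as its question.

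Depth in reads does not apply to arrays, and the 4 arrays per group limit the precision. The brighter of the RB1 probe sets read 6.24, 6.49, 6.27 and 6.93 on control arrays 1, 3, 4 and 5, and 7.40, 7.43, 8.10 and 7.87 on the RB arrays. It read 6.89, 6.59, 6.98 and 6.92 on the SMYD2 arrays and 7.90, 7.90, 9.25 and 9.62 on the arrays with both constructs. All 8 arrays labelled as receiving RB1 thus stood, on this set, above all 8 labelled as not receiving it. The dimmer RB1 set had group means of 3.49, 3.44, 3.44 and 3.51 in control, RB, SMYD2 and both constructs, near the lowest signals of the arrays, and showed no rise with RB1. A human probe set for SMYD2 does not check a mouse construct, so introduced SMYD2 was not checked. The brightest human SMYD2 set had group means of 10.16, 10.05, 10.28 and 10.18 in control, RB, SMYD2 and both constructs. Of the osteoblast markers, 7 were measured and their means stood between the 85.0 and 99.3 percentiles of all genes, with RUNX2 at 12.42 and IBSP at 12.66. Of 13 markers of other cell types, 12 had means between 3.82 and 6.24, and the epithelial marker EPCAM had a mean of 9.40, with 9.05 to 9.62 over the arrays. RNA integrity was read from the ACTB control probes as the log2 signal at the 3′ end minus that at the 5′ end, where a high value marks shortened RNA. It was 2.46 on control array 1 and 3.53 on SMYD2 array 1, and between 0.54 and 1.63 on the other 14. The same measure from the GAPDH control probes spanned only -0.0063 to 0.161 over the 16 arrays; it was highest on SMYD2 array 1, while control array 1, at 0.0551, did not stand apart.

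Aurora A (AURKA) matures centrosomes and builds the spindle, and Polo-like kinase 1 (PLK1) acts from mitotic entry to cytokinesis. In the passenger complex, Aurora B (AURKB) is the kinase, INCENP the scaffold that binds and activates it, and survivin (BIRC5) and borealin (CDCA8) bring it to the centromere. MPS1 (TTK) and BUB1 start checkpoint signalling at unattached kinetochores, and MAD2 (MAD2L1) and BUBR1 (BUB1B) are parts of the inhibitor that holds back the anaphase-promoting complex. Transcripts of this class are known to peak in G2 and mitosis. Their promoters often hold a cell cycle genes homology region (CHR) beside CCAAT boxes, the binding sites of NF-Y. RB and its relatives act on such genes through E2F factors and, for the relatives p107 and p130, through the DREAM complex, which reaches DNA through the CHR. A bulk array cannot tell fewer cells in mitosis from less of these RNAs per cell.

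Promoters of 7 of the 10 genes were matched in RefSeq (GRCh38.p14), each as the 250 bases before and 50 bases after the annotated start. AURKA, BIRC5 and TTK were not matched, and AURKB had a pair of starts 24 bases apart. The 250 upstream bases of 5 genes are printed 5′ to 3′ because they show how CHR and CCAAT matches lie in a kinase, in 3 subunits of the passenger complex and in a checkpoint gene. PLK1 is at chr16:23678639-23678888 (plus strand), AURKB at chr17:8210226-8210475 (minus strand), CDCA8 at chr1:37692266-37692515 (plus strand), INCENP at chr11:62123761-62124010 (plus strand) and BUB1B at chr15:40160819-40161068 (plus strand). Capitals mark matches to a CHR (TTTGAA or TTCGAA, or TTCAAA on the other strand) or a CCAAT box (CCAAT, or ATTGG on the other strand).
PLK1: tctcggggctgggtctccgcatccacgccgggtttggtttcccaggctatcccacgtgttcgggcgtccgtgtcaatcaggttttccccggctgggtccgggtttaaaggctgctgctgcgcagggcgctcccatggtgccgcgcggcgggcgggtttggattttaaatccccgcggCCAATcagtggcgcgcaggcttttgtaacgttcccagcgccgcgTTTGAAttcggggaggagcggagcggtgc
AURKB: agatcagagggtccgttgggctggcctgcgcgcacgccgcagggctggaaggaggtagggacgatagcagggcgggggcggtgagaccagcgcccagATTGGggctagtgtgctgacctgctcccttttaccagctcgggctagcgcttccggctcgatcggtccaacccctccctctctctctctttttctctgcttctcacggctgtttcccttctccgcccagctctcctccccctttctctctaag
CDCA8: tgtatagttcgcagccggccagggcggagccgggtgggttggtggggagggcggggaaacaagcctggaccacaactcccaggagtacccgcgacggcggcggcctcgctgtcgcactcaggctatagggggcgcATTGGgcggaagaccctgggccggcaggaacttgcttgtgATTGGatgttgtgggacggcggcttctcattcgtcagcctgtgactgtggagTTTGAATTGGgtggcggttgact
INCENP: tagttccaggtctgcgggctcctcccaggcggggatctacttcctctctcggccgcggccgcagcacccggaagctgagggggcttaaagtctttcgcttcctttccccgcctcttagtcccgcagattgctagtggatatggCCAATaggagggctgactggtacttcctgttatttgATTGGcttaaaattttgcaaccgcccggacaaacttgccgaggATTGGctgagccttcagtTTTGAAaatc
BUB1B: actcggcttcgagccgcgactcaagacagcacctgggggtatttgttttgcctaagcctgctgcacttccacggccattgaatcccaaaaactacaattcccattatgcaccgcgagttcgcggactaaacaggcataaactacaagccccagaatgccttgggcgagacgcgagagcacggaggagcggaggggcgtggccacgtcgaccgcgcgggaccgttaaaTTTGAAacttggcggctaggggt

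A CHR match was present in 6 of the 7 promoters, against 16.4% of 35116 promoters of the same length. The exception was AURKB. The first base of the match lay 29 bases before the start in PLK1, 23 in CDCA8, 23 in BUB1B and 10 in INCENP, and after the start in BUB1 and MAD2L1. CCAAT was also found in 6 of the 7, against 34.6% of all promoters, the exception being BUB1B. In CDCA8 the nearest CCAAT match overlapped the CHR match. None of the 7 held an E2F match (TTTCCCGC, TTTGGCGC, TTTGCCGC or TTTCGCGC, either strand), which 3.31% of all promoters did. A match describes letters only, and no factor's binding was measured.

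**Figure D1:**
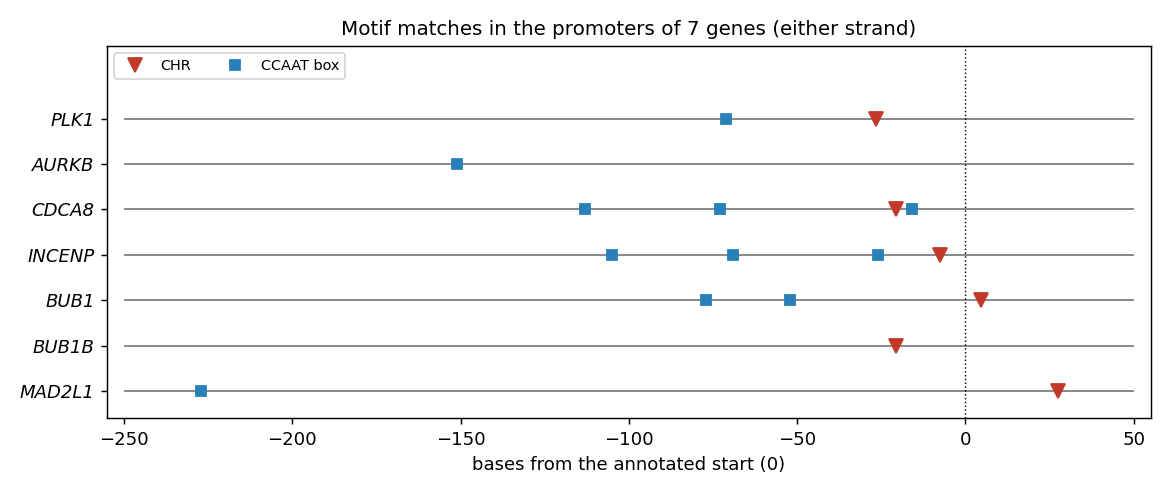
Position of CHR matches (triangles) and CCAAT matches (squares) on either strand, in bases from the annotated start, in the RefSeq promoters of 7 genes (AURKB: the first of 2 starts). CHR matches begin between 29 bases before and 25 bases after the start in 6 genes, and AURKB has none.

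In cells given RB1, 7 of the 10 genes fell against untransfected cells, by 1.60-fold to 1.68-fold, and the other 3 were lower but did not pass the test. The genes that passed were both free-standing kinases (AURKA and PLK1), AURKB and CDCA8 of the passenger complex, and BUB1, BUB1B and TTK of the checkpoint. Those that did not were BIRC5, INCENP and MAD2L1. Of all genes, 1.71% were called lower in this comparison, and 3.47% with the replicate number as a block. The median difference was -0.71 over the 10 genes and 0.01 over all genes. The test was limma's moderated test with Benjamini-Hochberg adjustment over 19775 genes, called at an adjusted p under 0.05, as throughout.

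AURKA read 11.09, 11.22, 11.22 and 11.21 on control arrays 1, 3, 4 and 5, and 10.49, 10.61, 10.29 and 10.41 on the RB arrays. The groups did not overlap: the highest RB array lay below the lowest control array. AURKA fell by 0.73 ± 0.11 (SE), 1.66-fold, with an adjusted p of 0.00128. PLK1 read 7.84, 7.99, 7.81 and 7.92 in control and 7.12, 7.15, 7.30 and 7.26 with RB1, again without overlap. It fell by 0.68 ± 0.08, 1.60-fold (adjusted p = 0.000294).

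Within the passenger complex, the kinase AURKB read 9.62, 9.37, 9.53 and 9.56 in control and 8.79, 8.81, 8.79 and 8.85 with RB1. The RB arrays were tight, with an SD of 0.03, and all lay below control. AURKB fell by 0.71 ± 0.09 (adjusted p = 0.000518). CDCA8, the borealin subunit, read 9.84, 10.14, 10.11 and 10.25 in control and 9.16, 9.46, 9.30 and 9.43 with RB1. It fell by 0.75 ± 0.15, 1.68-fold, without overlap (adjusted p = 0.00938).

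BIRC5, the survivin subunit, was not called. Its control arrays read 11.17, 11.98, 11.97 and 12.06, and its RB arrays 10.97, 11.36, 11.25 and 11.25. Control array 1 lay inside the range of the RB arrays, and the other control arrays lay above it. The difference was -0.59 ± 0.20 (95% interval -0.997 to -0.17, adjusted p = 0.144). With the replicate number as a block the same difference had an adjusted p of 0.0119. Control array 1 was one of the pair with a high ACTB value; without it the difference was -0.79 with an adjusted p of 0.0168.

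INCENP, the scaffold, had the smallest difference of the 10. It read 6.96, 7.24, 7.24 and 7.11 in control and 6.80, 6.66, 6.80 and 6.84 with RB1. The ranges did not overlap, but the gap was narrow, from 6.84 to 6.96. The difference was -0.36 ± 0.11 (95% interval -0.59 to -0.13, adjusted p = 0.0901). At 7.14 in control its signal was the lowest of the 10, although levels of different probe sets are not comparable.

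**Figure D2:**
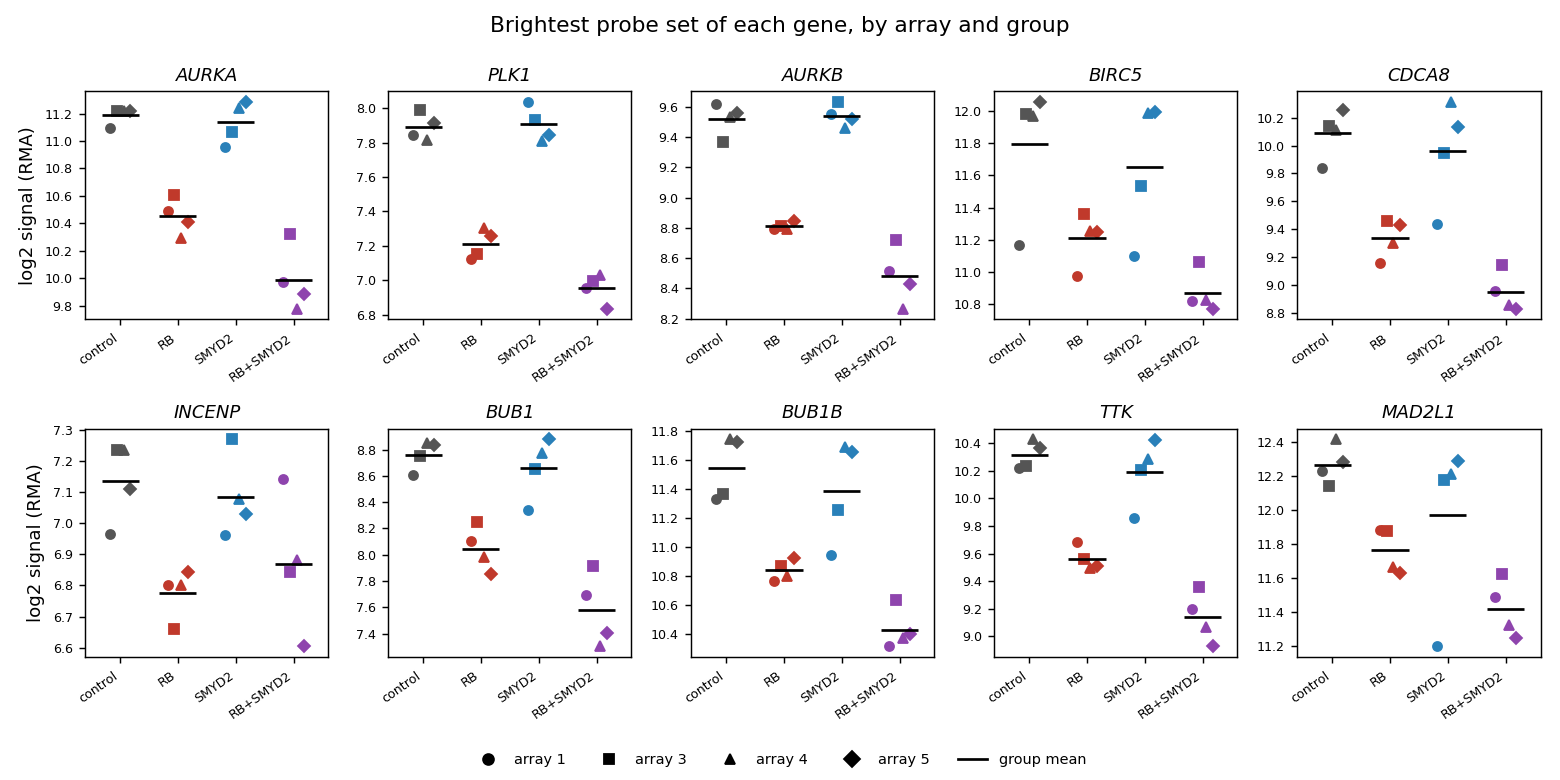
log2 signal of the brightest probe set of each of the 10 genes on the 16 arrays, by group (symbols: array number; lines: group means). In 9 of the 10 genes every RB array lies below every control array (BIRC5 is the exception), and the arrays with both constructs are lower still for all but INCENP when means are compared.

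Of the checkpoint genes, BUB1 read 8.61, 8.75, 8.85 and 8.84 in control and 8.10, 8.25, 7.98 and 7.86 with RB1. It fell by 0.71 ± 0.14 (adjusted p = 0.00794). BUB1B read 11.33, 11.37, 11.74 and 11.72 in control and 10.76, 10.86, 10.80 and 10.92 with RB1. Both pairs of groups were clear of each other, and the RB arrays of BUB1B were the tighter, with an SD of 0.07 against 0.22 in control. BUB1B fell by 0.70 ± 0.14 (adjusted p = 0.0103). Without control array 4 its difference was -0.64 and its adjusted p 0.0508.

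TTK, the kinase that starts the checkpoint signal, read 10.22, 10.23, 10.43 and 10.37 in control and 9.68, 9.56, 9.50 and 9.51 with RB1. It fell by 0.75 ± 0.11, 1.68-fold (adjusted p = 0.00151), without overlap. MAD2L1 read 12.23, 12.14, 12.42 and 12.29 in control and 11.89, 11.88, 11.67 and 11.63 with RB1. The groups did not overlap, yet the difference of -0.50 ± 0.18 (95% interval -0.88 to -0.13) did not pass (adjusted p = 0.170). The spread used by the fit is shared over the 4 groups, and for MAD2L1 the SD was 0.52 in the SMYD2 group and 0.12 to 0.17 in the others. Without SMYD2 array 1, which read 11.20 against 12.18 to 12.29 on the other SMYD2 arrays, the difference kept its size (-0.50) and had an adjusted p of 0.00218.

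All 10 genes were lower with RB1 in all 4 same-numbered pairs of arrays, as were 13.2% of all genes, and 9 of the 10 did not overlap, against 5.20% of all genes. Without the 4 arrays numbered 1, an alternative added after the data were seen, all 10 were called, while calls in either direction over all genes went from 585 to 1089. INCENP then had -0.43 (adjusted p = 0.0263) and MAD2L1 -0.56 (adjusted p = 0.00689).

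The other probe sets of these genes were fitted with all 54675 probe sets. For BIRC5, a further probe set read 10.61, 10.81, 10.82 and 10.77 in control and 10.05, 10.27, 10.04 and 10.04 with RB1. It did not overlap and fell by 0.65 ± 0.10 (adjusted p = 0.00366), so that the gene's call differed between its probe sets. The remaining BIRC5 sets were lower by like amounts without a call, at -0.58 ± 0.25 (adjusted p = 0.430) and -0.43 ± 0.23 (adjusted p = 0.573).

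A further AURKA set read 10.53, 10.94, 11.02 and 11.04 in control and 10.16, 10.36, 10.24 and 10.26 with RB1. It was lower without overlap, at -0.63 ± 0.16, and was not called (adjusted p = 0.0816). The dimmer AURKB set had -0.70 ± 0.27 with overlapping groups (adjusted p = 0.318). MAD2L1 had -0.60 ± 0.21 and -0.43 ± 0.20 in its other sets, neither called. The 5 dimmest sets, 1 of AURKA and 4 of BUB1, had means from 3.87 to 5.25, below the array medians of 5.59 to 5.64, and differences between -0.18 and 0.12. Averaging all sets of a gene gave AURKA -0.41 (adjusted p = 0.134) and BUB1 -0.20 (adjusted p = 0.126), both then uncalled. BIRC5, at -0.56, was then called (adjusted p = 0.00616).

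**Figure D3:**
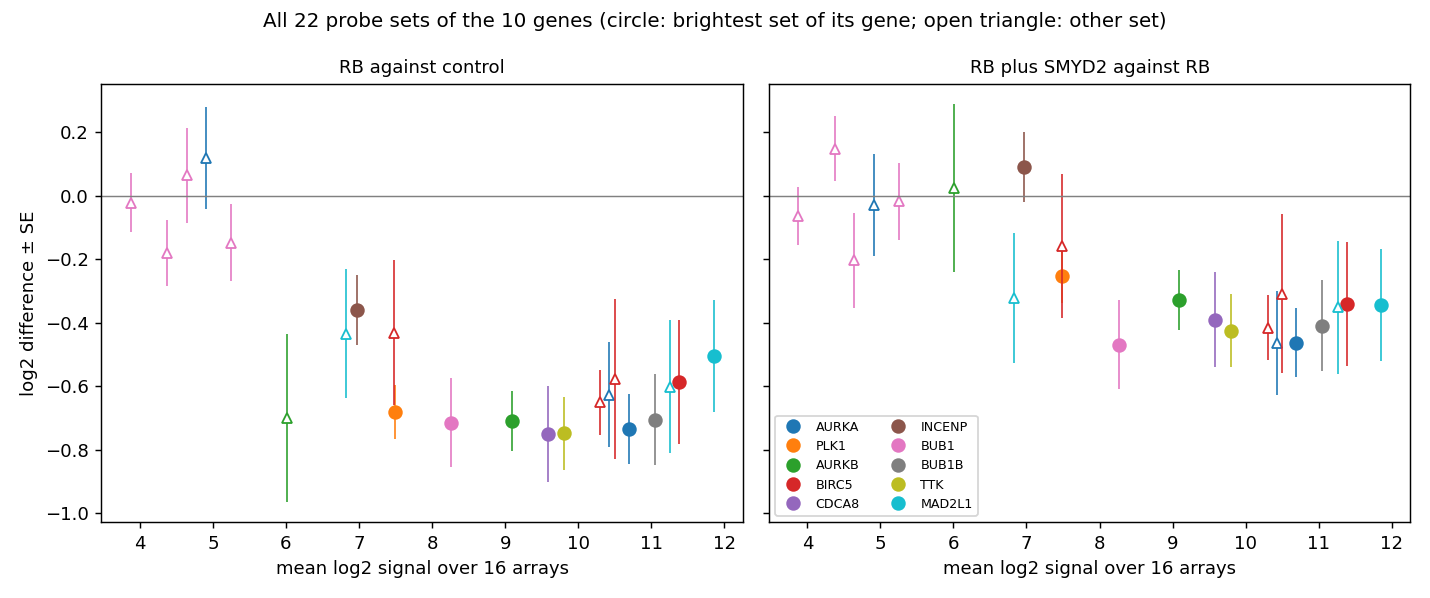
log2 difference with its standard error (vertical axis) against the mean log2 signal over 16 arrays (horizontal axis) for the 22 probe sets, for RB against control (left) and RB plus SMYD2 against RB (right). Filled circles are the brightest set of each gene. The 5 dimmest sets lie near 0 in the left panel, between -0.18 and 0.12, while the brighter sets lie between -0.75 and -0.36.

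Mouse SMYD2 alone gave no called change in any of the 10 genes, and no gene among all 19775 was called (0%). At an unadjusted p under 0.05 the count was 0 of 10, against 2.89% of all genes. Differences from control ran from -0.30 for MAD2L1 to 0.021 for AURKB, with a median of -0.11, and all groups overlapped (0.602% of all genes did not, with lower values). PLK1 read 8.04, 7.93, 7.81 and 7.85 with SMYD2, a difference of 0.016 (95% interval -0.15 to 0.18). AURKB read 9.55, 9.63, 9.46 and 9.52, a difference of 0.021 (-0.17 to 0.21). Neither interval holds a difference as large as that with RB1.

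For the other genes the interval was wider, and only for MAD2L1 did it hold the difference with RB1 (-0.67 to 0.08, against -0.50). For BIRC5 its lower end came close, at -0.55 against -0.59. The differences with RB1 have intervals of their own, and the groups share control arrays. AURKA read 10.95, 11.06, 11.24 and 11.29 with SMYD2, BUB1 8.34, 8.65, 8.77 and 8.88, and TTK 9.86, 10.20, 10.28 and 10.42. In each of them array 1 was the lowest, and arrays 4 and 5 were at or near control values. BIRC5 and CDCA8 had the same form, at 11.10, 11.53, 11.99 and 11.99 and at 9.44, 9.94, 10.31 and 10.13. BUB1B read 10.95, 11.25, 11.69 and 11.66, lower than the same-numbered control on all 4 arrays, with a difference of -0.16 (95% interval -0.46 to 0.15). Of all genes, 5.60% were lower in all 4 pairs.

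MAD2L1 read 11.20, 12.18, 12.22 and 12.29; its difference of -0.30 had an interval of -0.67 to 0.08 and was -0.052 without the arrays numbered 1. SMYD2 array 1 had the highest ACTB value, 3.53. The part of RNA integrity in these low values was not tested. INCENP read 6.96, 7.27, 7.08 and 7.03, a difference of -0.051 (-0.28 to 0.17), with array 1 as low as control array 1 and array 3 the highest.

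With both constructs, 9 of the 10 genes fell against control, by 1.80-fold to 2.29-fold, where 4.20% of all genes were called lower. The same 9 did not overlap, against 7.79% of all genes. INCENP was the exception, at -0.27 ± 0.11 (adjusted p = 0.168). Without the arrays numbered 1, an alternative added after the data were seen, INCENP was called at -0.42 (adjusted p = 0.0170). With array weights INCENP was called at -0.30 (adjusted p = 0.0234), and with the replicate block it was not (0.128). Calls over all genes went from 1424 to 1944 without those arrays and to 3687 with weights. The comparison shares its control arrays with that of RB alone, so both are set side by side without a test of their likeness. AURKA fell by 1.20 ± 0.11 with both constructs and by 0.73 with RB1 alone. BUB1 fell by 1.18 ± 0.14 and 0.71. TTK fell by 1.17 ± 0.11 and 0.75. These 3 had the largest differences of the 10 in this comparison. BIRC5, not called with RB1 alone, fell by 0.93 ± 0.20 (adjusted p = 0.00598), and MAD2L1, likewise, fell by 0.85 ± 0.18 (adjusted p = 0.00565). The remaining genes fell by 0.94 (PLK1), 1.04 (AURKB), 1.11 (BUB1B) and 1.14 (CDCA8). Calls differed between probe sets of a gene. Further sets were called for BIRC5 (-1.07 ± 0.10), AURKA (-1.09 ± 0.16) and MAD2L1 (-0.95 ± 0.21). Not called were the remaining BIRC5 sets (-0.88 ± 0.25 and -0.59 ± 0.23), the dimmer AURKB set (-0.67 ± 0.27) and the dimmest MAD2L1 set (-0.76 ± 0.20). The dim AURKA and BUB1 sets were not called either.

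The step from RB1 alone to both constructs is the comparison that bears on SMYD2 in cells with introduced RB. None of the 10 genes was called, as was no gene of all 19775 (0%), in limma's fit with Benjamini-Hochberg adjustment. At an unadjusted p under 0.05, 7 of the 10 were lower, against 1.97% of all genes, and 6 of the 10 did not overlap, against 1.98%. All but INCENP were lower in 4 of 4 same-numbered pairs, as were 9.54% of all genes. The median difference was -0.37 over the 10 genes, against 0.005 over all genes. With the replicate number as a block, 8 of the 10 had an unadjusted p under 0.05, against 3.34% of all genes, and still none was called.

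AURKA read 9.97, 10.32, 9.78 and 9.88 with both constructs, against 10.49, 10.61, 10.29 and 10.41 with RB1 alone. Each array was lower than its same-numbered partner, and array 3, at 10.32, reached the range of the RB group. The difference was -0.46 ± 0.11 (95% interval -0.69 to -0.23, adjusted p = 0.685). PLK1 read 6.96, 6.998, 7.03 and 6.83, all below the RB arrays. Its difference was -0.25 ± 0.08 (-0.42 to -0.08, adjusted p = 0.868).

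In the passenger complex, AURKB read 8.52, 8.72, 8.26 and 8.43 with both constructs, with array 3 just under the RB range and array 4 the lowest. The difference was -0.33 ± 0.09 (-0.52 to -0.13, adjusted p = 0.696). BIRC5 read 10.82, 11.06, 10.82 and 10.77, overlapping the RB arrays in array 3, with -0.34 ± 0.20 (-0.75 to 0.07). Its further probe set read 9.64, 9.83, 9.58 and 9.70, all below its RB arrays, a difference of -0.42 ± 0.10 without a call. The remaining BIRC5 sets stood at -0.31 ± 0.25 and -0.16 ± 0.23, with overlapping groups and no call. The dimmer AURKB set was not lower, at 0.025 ± 0.27, and its groups overlapped. CDCA8 read 8.95, 9.15, 8.86 and 8.83, narrowly below all RB arrays (9.15 against 9.16), with -0.39 ± 0.15 (-0.71 to -0.08).

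INCENP read 7.14, 6.84, 6.88 and 6.60 with both constructs. Array 1 was above its RB partner by 0.34, array 5 was below it, and the groups overlapped. The difference was 0.091 ± 0.11 (-0.13 to 0.32), so INCENP was the only one of the 10 whose mean was not lower than with RB1 alone. Without the arrays numbered 1 it was 0.0082.

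In the checkpoint group, BUB1 read 7.69, 7.91, 7.30 and 7.40 with both constructs. Arrays 4 and 5 were the lowest, and array 3 lay within the RB range. Its difference of -0.47 ± 0.14 (-0.76 to -0.18) was not called (adjusted p = 0.745). BUB1B read 10.31, 10.63, 10.37 and 10.40 and TTK 9.20, 9.36, 9.07 and 8.93, both wholly below their RB arrays. Their differences were -0.41 ± 0.14 (-0.71 to -0.11) and -0.43 ± 0.11 (-0.67 to -0.18). MAD2L1 read 11.49, 11.63, 11.32 and 11.25, also without overlap, though its highest array and the lowest RB array round to the same 11.63. Its difference was -0.34 ± 0.18 (-0.72 to 0.03).

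**Figure D4:**
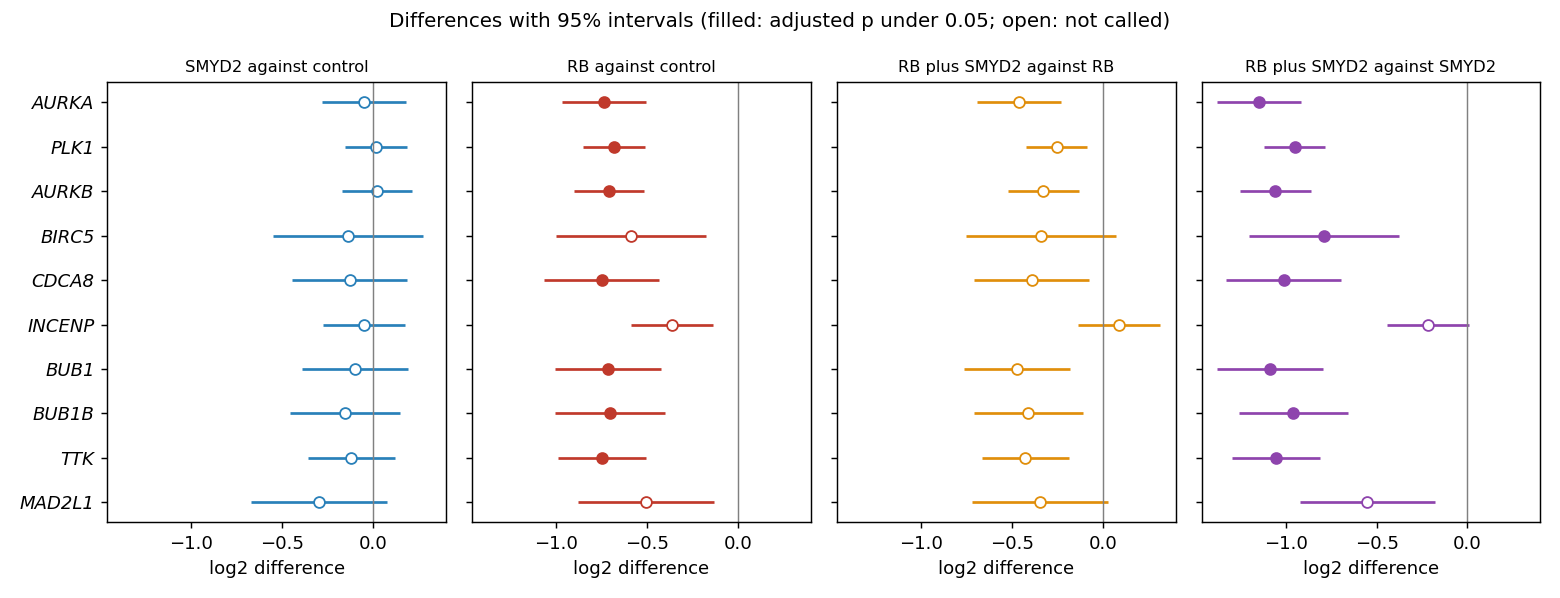
log2 difference (points) with its 95% interval (lines) for the 10 genes in 4 comparisons; filled points have an adjusted p under 0.05. With SMYD2 alone every interval holds 0. From RB to both constructs no point is filled, and 7 intervals lie wholly below 0. INCENP is open in all 4 panels.

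The RB1 transcript itself was higher in value, without a call, with both constructs. On the brighter probe set the difference was 0.97 ± 0.31 against RB alone (adjusted p = 0.880) and was above 0 in all 4 same-numbered pairs. The interval of this difference, 0.31 to 1.62, lay wholly above 0, although the groups overlapped. Its unadjusted p in limma's test was 0.0065, under the limit of 0.05 used for the 10 genes in the same comparison. Among the arrays with both constructs, arrays 4 and 5 had the most RB1 signal, 9.25 and 9.62 against 7.90 and 7.90. They also had the lowest mean over the 10 genes, 8.97 and 8.93 against 9.11 and 9.26. Among the RB arrays, array 4 had the most RB1 (8.10) and a mean of 9.37, against 9.38 to 9.46 on the others. RB arrays 1, 3 and 5 had RB1 at 7.40, 7.43 and 7.87 and means of 9.38, 9.46 and 9.39. The part of the RB1 level in the difference between these groups was not tested. ACTB values overlapped, at 0.95 ± 0.31 and 1.02 ± 0.46 (SD, n = 4).

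**Figure D5:**
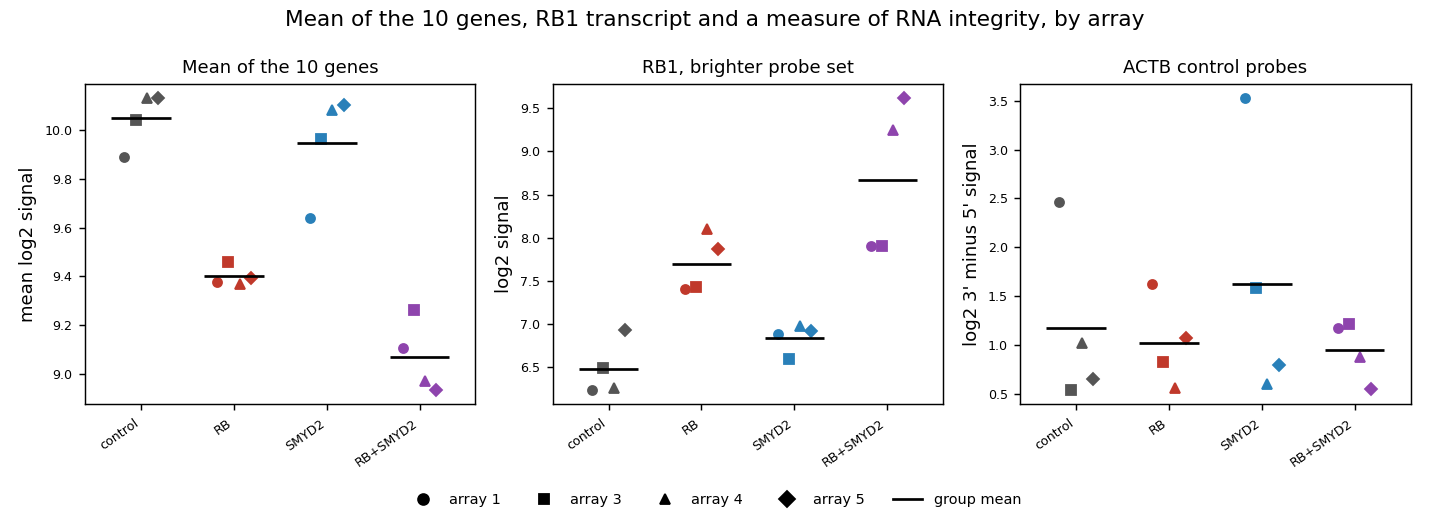
Mean log2 signal of the 10 genes (left), log2 signal of the brighter RB1 probe set (middle) and the log2 difference between 3′ and 5′ ACTB control probes (right) on the 16 arrays; lines are group means. The mean is lowest and RB1 highest on arrays 4 and 5 with both constructs, and ACTB is highest on array 1 of the control and SMYD2 groups.

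Against SMYD2 alone, where both groups were transfected, 8 of the 10 genes fell when RB1 was added, against 4.25% of all genes called lower. Groups did not overlap for 8 of the 10, against 6.61%. AURKA fell by 1.15 ± 0.11, 2.21-fold (adjusted p = 4.65e-06), and PLK1 by 0.95 ± 0.08, 1.93-fold (adjusted p = 2.05e-06). AURKB fell by 1.06 and CDCA8 by 1.01. The dimmer AURKB set, at -0.74 ± 0.27, was not called. In the checkpoint group BUB1 fell by 1.08, BUB1B by 0.96 and TTK by 1.05.

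BIRC5 fell by 0.79 ± 0.20 (adjusted p = 0.0190). That call was lost without SMYD2 array 4 (0.0646), SMYD2 array 5 (0.0636), or array 4 (0.0570) or 5 (0.0633) of both constructs. Its further probe set was called at -0.96 ± 0.10, and its remaining sets, at -0.72 ± 0.25 and -0.81 ± 0.23, were not. MAD2L1 had -0.55 ± 0.18 and an adjusted p of 0.0723, which was 0.0378 with the replicate block (7.60% of all genes called lower). Without SMYD2 array 1 its difference was -0.81 (adjusted p = 2.7e-05). INCENP was at -0.22 ± 0.11 (-0.44 to 0.01) and was not called. Without the arrays numbered 1 it was called at -0.35 (adjusted p = 0.0441), while calls over all genes went from 1422 to 1861.

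Whether the effect of RB1 differed with SMYD2 present was tested as the interaction, the RB1 effect in SMYD2 cells minus that in cells without it. The RB1 effect without SMYD2 was taken against untransfected cells and includes transfection, while that in SMYD2 cells does not. A change in the RB1 effect and an effect of transfection therefore cannot be told apart here. None of the 10 genes was called, nor was any gene of all 19775 (0%). At an unadjusted p under 0.05 there were 3 of 10, all lower, against 1.42% of all genes: AURKA at -0.41 ± 0.15 (-0.74 to -0.09), AURKB at -0.35 ± 0.13 (-0.62 to -0.07) and PLK1 at -0.27 ± 0.11 (-0.51 to -0.03). That count was 1 with the mean of a gene's probe sets, 5 without the arrays numbered 1 and 7 with array weights. A further AURKA set had -0.35 ± 0.23 and the dimmer AURKB set -0.036 ± 0.38, neither with an unadjusted p under 0.05. A further BIRC5 set, at -0.31 ± 0.14, had one. On their brightest sets, MAD2L1 stood at -0.046 ± 0.25 and INCENP at 0.14 ± 0.15. The median over the 10 genes was -0.27, against -0.01 over all genes.

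The partners of these genes were read from lists of known names. Of 14 measured Aurora and passenger complex partners, 6 fell with RB1 and 8 did not pass, where 1.71% of all genes were called lower, and the median was -0.56. With the replicate block 12 were called lower, against 3.47% of all genes. SGO2, the shugoshin that guards centromeric cohesion, had the largest difference (-0.86 ± 0.11, adjusted p = 0.000408). Next were the kinesins KIF20A, which carries the passenger complex to the midzone (-0.75, adjusted p = 0.000545), and KIF4A (-0.72, adjusted p = 0.00230), and CDCA2 (-0.72, adjusted p = 0.00301). AURKC, the Aurora kinase of germ cells, stood at -0.022 and was picked out after its value was seen.

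Of 13 checkpoint partners, 6 fell and 7 did not pass, against 1.71% of all genes called lower, with a median of -0.42. KNL1, the kinetochore platform for BUB1, had -0.78 ± 0.10 (adjusted p = 0.000529), and CDC20, the activator that the checkpoint holds back, had -0.76 ± 0.11 (adjusted p = 0.00103). ZWINT was at -0.57 (adjusted p = 0.00347) and TRIP13, which disassembles checkpoint complexes, at -0.54 (adjusted p = 0.139, 0.0146 with the block). BUB3 (-0.18) and MAD1L1 (-0.00029), binding partners of BUB1 and MAD2, were not called and were picked out after their values were seen.

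Of 10 Polo family members and partners, 5 fell and 5 did not pass, against 1.71% of all genes called lower, with a median of -0.61. The largest differences were those of FBXO5, an inhibitor of the anaphase-promoting complex (-0.72, adjusted p = 0.00420), the phosphatase CDC25C (-0.72, adjusted p = 0.0369), the centromere protein CENPU (-0.67, adjusted p = 0.00805) and CEP55 of the midbody (-0.65, adjusted p = 0.199, 0.0248 with the block). Of the PLK1 paralogs, PLK4, which duplicates centrioles, stood at -0.58 ± 0.23 (adjusted p = 0.254), PLK3 at 0.081 and PLK2 at 0.24, none called and all picked out after their values were seen. Their differences from PLK1 were not tested.

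Of 14 other mitotic kinases, 6 fell, 1 rose and 7 did not pass, against 1.71% of all genes called lower and 1.24% called higher, with a median of -0.47. NEK2, which splits centrosomes, fell by 0.75 ± 0.18 (adjusted p = 0.0282), MASTL, the Greatwall kinase, fell by 0.69 (adjusted p = 0.0279) and MELK fell by 0.62 (adjusted p = 0.00238). PBK was at -0.71 (adjusted p = 0.126). The kinase that rose was NEK9, by 0.37 ± 0.08 (adjusted p = 0.0208), named here because it was the single one.

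Of 18 regulators of such promoters (E2F, MYB, FOXM1, NF-Y and DREAM components), 7 fell and 11 did not pass, against 1.71% of all genes called lower, with a median of -0.28. They included FOXM1, an activator of G2 and mitotic genes, at -0.76 ± 0.11 (adjusted p = 0.00101), and the repressive E2Fs E2F7 (-0.70, adjusted p = 0.00784) and E2F8 (-0.69, adjusted p = 0.0136). RBL1, which encodes p107, had -0.62 (adjusted p = 0.00682). The lists' medians compare with 0.01 over all genes. With the replicate block, 8 of 13 checkpoint partners, 7 of 10 Polo genes, 8 of 14 other kinases and 8 of 18 regulators were called lower. The share of all genes was 3.47%.

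From RB1 alone to both constructs none of the genes on these 5 lists was called. Groups did not overlap, with lower values, for 7 of 14 Aurora partners, 4 of 13 checkpoint partners, 4 of 10 Polo genes, 3 of 14 other kinases and 2 of 18 regulators, against 1.98% of all genes. The lists' medians were -0.30, -0.17, -0.32, -0.15 and -0.09. The 4 with the largest absolute difference on each list were KIF4A (-0.46), CDCA2 (-0.41), TACC3 (-0.40) and KIF2C (-0.40) among Aurora partners, and CDC20 (-0.37), KNL1 (-0.37), TRIP13 (-0.34) and SPDL1 (-0.31) among checkpoint partners. Among the Polo genes they were CEP55 (-0.48), CDC25C (-0.41), PLK4 (-0.38) and ERCC6L (-0.34). The other kinases gave NEK2 (-0.45), MELK (-0.37), MASTL (-0.35) and CDK1 (-0.30), and the regulators E2F8 (-0.47), FOXM1 (-0.45), E2F7 (-0.41) and RBL1 (-0.28). With SMYD2 alone, none of the genes on the 5 lists was called.

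Over the 16 arrays, the 10 genes did not follow one course equally closely. Each gene's values were centred on its own mean and set against the mean course of the 10, as the root mean square distance in log2 units. TTK was the nearest at 0.095 and INCENP the farthest at 0.316, with AURKA at 0.129, PLK1 at 0.175 and MAD2L1 at 0.206. The 5 other genes nearest to that mean course were MELK (0.057), NCAPH (0.065), CIP2A (0.065), PRC1 (0.070) and KIF20B (0.075). They were chosen for that course, so their differences with RB1, from -0.72 to -0.61, are a description only. Among single genes, AURKA lay nearest to HJURP (0.078) and BUB1 (0.083), AURKB to CDKN3 (0.063), PLK1 to CDC25B (0.097) and INCENP to SMYD5 (0.092). These distances describe the arrays, which share groups and replicate numbers, and carry no test.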

How the data were processed

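Total RNA of SAOS cells was measured on 16 Affymetrix Human Genome U133 Plus 2.0 arrays, 4 per group. The authors deposited log2 signals for 54675 probe sets, made with RMA, which corrects background, normalizes arrays by quantiles and summarises the probes of a set, per the submitters' processing notes. The sources used here do not say whether RMA took all arrays at once. RMA gives no detection call, so dim sets have no bound. The platform annotation gave 1 symbol to 41097 probe sets, several to 1801 and none to 11777; only the first were used. The values were not normalized again. limma 3.58.1 (R 4.3.3; 1 mean per group, intensity trend) was fitted on the brightest probe set of each of 19775 genes, with Benjamini-Hochberg adjustment, and separately on all probe sets; it was tested on simulated data.

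Named were all 10 genes, RB1 as a label check, SMYD2, and the 5 genes nearest to the mean course. From each list came the 4 genes with the largest absolute difference in RB against control and in RB plus SMYD2 against RB. Outside this rule, and chosen after their values were seen, AURKC, BUB3, MAD1L1, PLK2, PLK3, PLK4 and NEK9 in RB against control and the genes nearest to AURKA, AURKB, PLK1 and INCENP are named too. The genes, lists and tests were chosen with earlier results of these data known. Same-numbered arrays tended to deviate together, except RB with SMYD2 alone (lowest correlation of deviations from group means -0.077), a pair not compared here. The correlation ran from 0.188 to 0.424 for control with RB. For RB with both constructs it ran from 0.145 to 0.533, and for SMYD2 with both from 0.200 to 0.492. Differently numbered arrays reached 0.315, 0.401 and 0.320 in these pairs of groups, above the lowest same-numbered values, so the pairing was not clear-cut. The number was taken to pair arrays and fitted as a block in an alternative. Other alternatives were the scaling, filter, trend, array weights, probe set rule and leaving out arrays. Array pairs within a group correlated at 0.981 to 0.998, so none was counted as a duplicate. Promoter letters came from RefSeq (GRCh38.p14). Figures were drawn with matplotlib 3.10.9.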

Additional observations from a re-analysis of the deposited data

Results flagged for a closer look

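Of 40 sets of 4 arrays (10 genes in 4 groups), 3 had an array far from the other three by Dixon's ratio; chance gives about 1 in 20. AURKA read 11.09 on control array 1, with the others at 11.22, 11.22 and 11.21. BIRC5 read 11.17 on the same array, with the others between 11.97 and 12.06. MAD2L1 read 11.20 on SMYD2 array 1, with the others between 12.18 and 12.29. All 3 are low values, on the pair of arrays with the highest ACTB difference between 3′ and 5′ probes (2.46 and 3.53), while the GAPDH difference was 0.0551 and 0.161 on them, within or at the top of its narrow range. The part of RNA integrity in these values was not tested. Without the arrays numbered 1, BIRC5 was at -0.72 and MAD2L1 at -0.56 in RB against control, both called.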

How the results depend on the processing

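Counts of the 10 genes called lower kept within 1.5 times the main count under all alternatives run. For RB against control (7) they were 8 with the replicate block, 6 with the mean of a gene's probe sets, 8 with only the groups compared, 10 with array weights, 10 without the arrays numbered 1 (added after the data were seen), and 6 to 9 leaving out 1 array (6 without control array 4, 9 without SMYD2 array 1). For RB plus SMYD2 against SMYD2 (8) they were 9 with the block, 9 with array weights, 10 without the arrays numbered 1, and 7 to 9. For RB plus SMYD2 against control (9) they were 9 to 10, and for the other comparisons 0 throughout.

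Counts over all genes moved more. For RB against control 585 genes were called, 1399 with the block, 2296 with array weights, 1089 without the arrays numbered 1, and 286 (without RB array 4) to 984 (without SMYD2 array 1) leaving out 1 array. For RB plus SMYD2 against control the 1424 became 2562 with the block, 3687 with weights, and 899 to 2032. For RB plus SMYD2 against SMYD2 the 1422 became 2812 with the block, 3141 with weights, 748 with only those groups, and 859 to 1753. With all probe sets as separate features (added after the data were seen), 1 was called in RB plus SMYD2 against RB and 1 in the interaction, where none had been. Causes were not tested.

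Signs turned in SMYD2 against control, in the interaction and for INCENP in RB plus SMYD2 against RB, none of them called. For SMYD2 against control, BUB1 was 0.033 with the mean of its probe sets; AURKA was 0.015, PLK1 -0.024 and AURKB -0.013 with array weights; PLK1 was -0.044 without the arrays numbered 1. Leaving out 1 array gave AURKA -0.10 to 0.011, AURKB -0.030 to 0.054, BIRC5 -0.35 to 0.044, BUB1 -0.17 to 0.0078, CDCA8 -0.25 to 0.043 and PLK1 -0.028 to 0.048. INCENP in RB plus SMYD2 against RB went from -0.00032 to 0.18, and in the interaction BIRC5 went from -0.39 to 0.0075 and MAD2L1 from -0.30 to 0.061. Pairing by replicate number changed no call of the 10 genes other than BIRC5 (RB against control, 0.0119) and MAD2L1 (RB plus SMYD2 against SMYD2, 0.0378).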

Other observations

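Probe sets of one gene did not all move together on the arrays numbered 1. The dimmest BIRC5 set read 8.31, 7.39, 7.54 and 7.48 on control arrays 1, 3, 4 and 5, so that array 1 was the highest, and array 1 of the SMYD2 group, at 8.52, was the highest of its group. The brightest BIRC5 set read 11.17, 11.98, 11.97 and 12.06 in control and 11.10, 11.53, 11.99 and 11.99 with SMYD2, with array 1 the lowest of each. The AURKB sets did not part in this way in control, where array 1 was the highest on both. The dimmer set read 6.83, 6.11, 6.21 and 6.20 and the brighter set 9.62, 9.37, 9.53 and 9.56. With SMYD2 the dimmer set read 6.87, 6.59, 5.93 and 6.20, highest on array 1. The brighter set read 9.55, 9.63, 9.46 and 9.52 there, highest on array 3. These sets were picked out after their values were seen, and no cause was tested.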
